A study of Rattus norvegicus with 6 samples.

Results

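The genes described here are 10 genes of the smooth muscle contractile apparatus in rat jejunum: Acta2, Actg2, Tpm2, Cnn1, Tagln, Smtn, Lmod1, Myh11, Mylk and Des. Their probes were chosen by RefSeq accession on a 1-colour Agilent rat array, a slide that carries DNA probes which bind labelled RNA by its sequence. Of the 10 genes, 9 had a probe, with 14 probes among the 41012 of the array. Acta2, the alpha actin of vascular and visceral smooth muscle, had none and was not measured. Jejunal RNA of male Sprague-Dawley rats, 6 weeks old and of 200 ± 20 g, was compared between a control group kept at 25°C and an S3d group, which was exposed to 35°C and to vibration at 0.1 g for 2 h a day on 3 days. Each group had 3 arrays, each with RNA pooled from 3 rats. Pieces of jejunum were washed and minced, and no step that separates the muscle layers is named in the sources used here. The study's methods give fewer rats per group than the 10 in the sample labels, so whether pools shared an animal is not known, and the p-values measure only the spread between these samples.

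Smooth muscle of the gut wall shortens when myosin filaments pull on actin filaments. Calcium entering the cell activates myosin light chain kinase, which phosphorylates the light chains of myosin, and proteins lying along the actin filament adjust the force and the stability of the filament. Desmin filaments join the dense bodies of the cell, and many of these genes are switched on by serum response factor with its partner myocardin.

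A level is the log2 of the processed signal, which is the spot intensity after background subtraction, minus the 75th percentile of the processed signal on the same array. A difference is the mean level of the arrays labelled S3d minus that of the arrays labelled control, and a probe was called at an adjusted p under 0.05 in limma over all 31363 tested probes. These directions follow the labels of the scanner files. The normalized table deposited with them runs the other way, since each of its 6 columns followed a scanner file that carries the opposite group label (lowest Spearman rho 0.99995, against 0.941 to 0.948 with the file of its own label). No sample was reassigned, and which source carries the right labels is not known, so every direction below holds for the scanner labels and turns with them. The 75th percentile of signal was 414.8 to 430 on the arrays labelled control and 1458 to 1558 on those labelled S3d. The groups lay on separate slides with separate scan days, so slide, scan and group cannot be told apart.

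Most contractile probes were lower on the arrays labelled S3d. Of the 14 probes, 10 were called lower, 2 were called higher and 2 were not called. Mylk probe 1, Smtn probe 2, Des and Lmod1 had the largest drops. Relative to the 75th percentile of the array, their signals were 2.27- to 2.98-fold higher on the arrays labelled control. Before scaling, their signals were higher on the arrays labelled S3d. Myh11 probe 1 had the largest rise, at 1.97-fold relative to the same percentile. Changes were widespread on these arrays, and the members have to be read against that: 74% of all tested probes were called, 39.5% higher and 34.5% lower, whereas 85.7% of the member probes were called and 71.4% were called lower. With a fold of at least 1.5, 11 of the 14 member probes were called, against 52.4% of all tested probes. The median difference was -0.75 over the 14 member probes and 0.08 over all tested probes. Under quantile normalization the median difference of the measured member genes was -0.09, against 0.01 over all tested probes. In bulk RNA, a difference in the number of smooth muscle cells and a difference in these RNAs per cell cannot be told apart. Neither can be told apart from slide and scan.

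All 14 probes were well above background on all 6 arrays, so none passed the filter through 1 group alone. In 13 of them the 2 groups did not overlap, which was also true of 78.3% of all tested probes. Signal strength moved with the difference over the whole array. In the brightest 10% of tested probes, which held 6 of the 14 member probes, 65% were called lower, 15.9% were called higher and the median difference was -0.49. The part of signal strength in the lower values of the members was not tested.

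**Figure D1:**
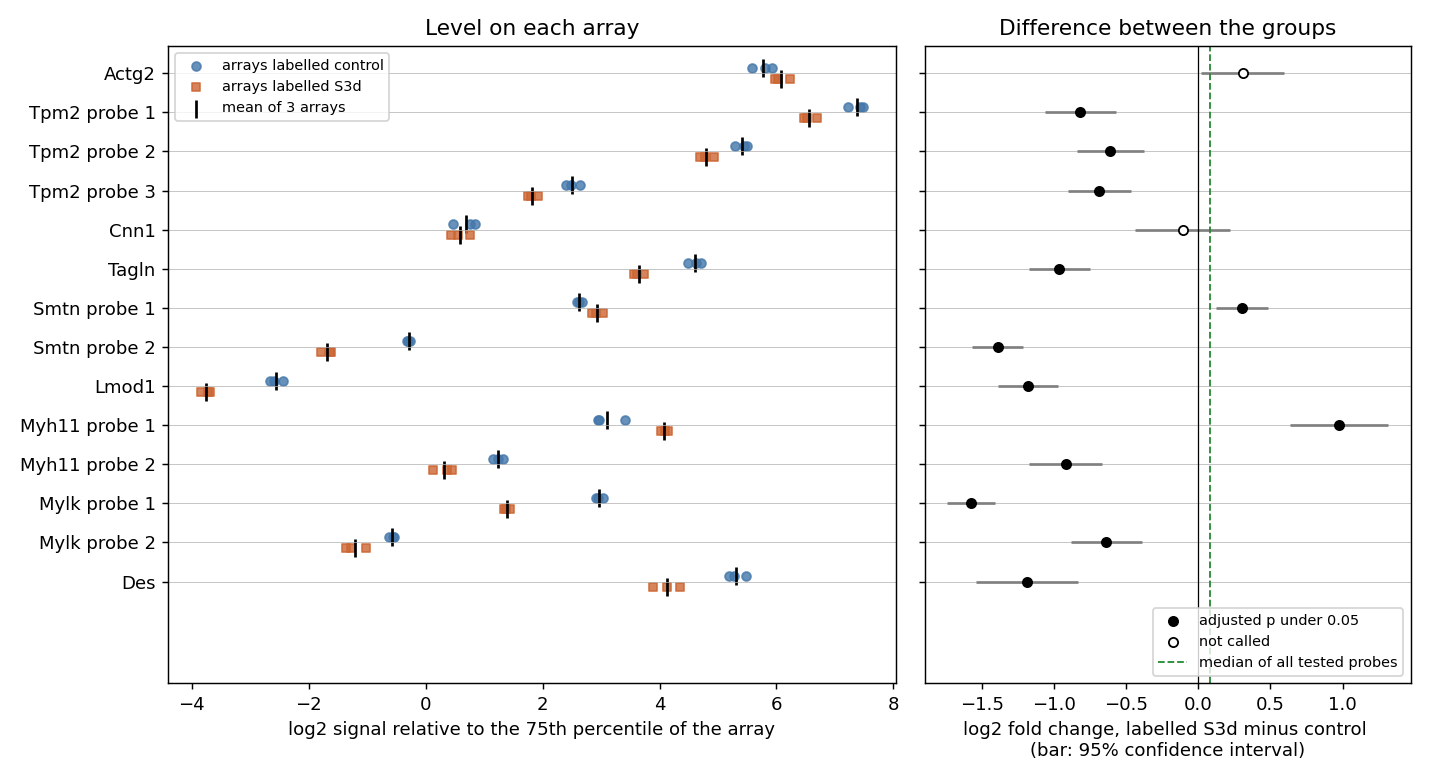
The left panel plots the log2 level of each of the 14 probes on each array, relative to the 75th percentile of the array, with a bar at the mean of the 3 arrays of each label. The right panel plots the difference, labelled S3d minus labelled control, with its 95% confidence interval, and the dashed line marks the median of all tested probes at 0.08. Of the probes, 10 lie to the left of 0 and are called, Cnn1 and Actg2 are not called, and Smtn probe 1 and Myh11 probe 1 lie to the right and are called.

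Actg2 encodes the gamma actin of visceral smooth muscle and was the only muscle actin among the members with a probe. Its levels were 5.92, 5.81 and 5.58 on control-labelled arrays 1 to 3, and 6.02, 5.98 and 6.23 on those labelled S3d. Every S3d-labelled array stood above every control-labelled one, but the gap between the closest arrays was small. The difference was 0.31 ± 0.12 (SE, n = 3 per group) with an adjusted p of 0.052 in limma, so Actg2 was not called. It was called without the array control replicate 1, at a difference of 0.38 and an adjusted p of 0.036, and under quantile normalization, at a difference of 0.97 and an adjusted p of 0.00044. Muscle actins are nearly identical in their coding sequence, and since the probe sequences were not used here, how far the Actg2 probe also binds RNA of Acta2 or Actc1 is not known.

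Serum response factor binds a short element, the CArG box, in the promoters of muscle genes. The window from 250 bases before each gene's start was searched for CC and GG with 6 letters between them, at least 5 of which are A or T, a pattern whose reverse complement is again a match, so that 1 pass covers both strands. Of the 7 member genes with a promoter in the RefSeq table (rat assembly GRCr8), only Acta2 held such a box, whereas 8.08% of the 33469 windows of the table held one. The last 150 bases before the start are given for Acta2, as the 1 member window with a box, and for Actc1 (cardiac alpha actin) and Srf (serum response factor itself), whose RNA was measured, with the boxes in capitals. The windows are chr1:241172504-241172653 on the minus strand for Acta2, chr3:121271828-121271977 on the minus strand for Actc1, and chr9:21923926-21924075 on the plus strand for Srf.
Acta2: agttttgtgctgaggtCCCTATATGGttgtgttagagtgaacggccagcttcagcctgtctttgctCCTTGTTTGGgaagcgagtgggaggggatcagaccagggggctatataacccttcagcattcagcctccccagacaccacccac
Actc1: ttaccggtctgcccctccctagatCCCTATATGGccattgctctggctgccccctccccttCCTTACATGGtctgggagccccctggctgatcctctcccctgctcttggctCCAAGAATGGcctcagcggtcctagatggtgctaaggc
Srf: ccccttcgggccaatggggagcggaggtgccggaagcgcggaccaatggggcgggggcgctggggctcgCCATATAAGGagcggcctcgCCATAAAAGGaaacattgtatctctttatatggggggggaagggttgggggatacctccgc
The boxes begin 134 and 84 bases before the start in Acta2, 126, 89 and 38 bases before it in Actc1, and 81 and 61 bases before it in Srf. A match is a run of letters and was not measured as a binding site. Actc1 and Srf are not members and were picked by hand, and no measured member with a window held a box. The search therefore gives no link between such boxes and the differences.

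Tpm2 encodes beta tropomyosin, which lies along the actin filament. Its 3 probes moved alike. Probe 1 had levels of 7.48, 7.43 and 7.22 on the arrays labelled control and of 6.69, 6.46 and 6.53 on those labelled S3d, with no overlap. The difference was -0.82 ± 0.10 (SE) with an adjusted p of 0.00054 in limma. Probes 2 and 3 had differences of -0.61 and -0.68, with adjusted p-values of 0.0016 and 0.00068. The calls of probes 1 and 2 rest on the scaling, since under quantile normalization their differences were -0.00038 and -0.12 and neither was called.

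Tagln encodes transgelin, an actin-binding protein used as an early marker of smooth muscle. Its levels were 4.71, 4.62 and 4.48 on arrays with the control label and 3.62, 3.56 and 3.74 on those labelled S3d. The groups were far apart relative to the spread within each of them. The difference was -0.96 ± 0.09 (SE), with an adjusted p of 0.00016 in limma. Relative to the 75th percentile of the array, the signal was 1.95-fold higher on the arrays labelled control. Before scaling, it was higher on the arrays labelled S3d. Under quantile normalization the difference was -0.58 and Tagln was still called.

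Cnn1 encodes calponin, which binds actin and slows the myosin ATPase. Its levels were 0.84, 0.75 and 0.47 on arrays with the control label and 0.55, 0.43 and 0.77 on those labelled S3d. It was the 1 member probe whose groups overlapped. The difference was -0.11 with a 95% confidence interval of -0.44 to 0.22 and an adjusted p of 0.49 in limma, so neither a drop nor a rise of Cnn1 was shown.

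Lmod1 encodes leiomodin, which starts new actin filaments in smooth muscle. It had levels of -2.44, -2.66 and -2.59 on the arrays labelled control and of -3.69, -3.72 and -3.84 on those labelled S3d. All S3d-labelled arrays were below all control-labelled arrays, with a difference of -1.18 ± 0.08 (SE) and an adjusted p of 6.5e-05 in limma. Its processed signals were 67.4 to 76.3 and 109 to 118.4 before scaling.

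Smtn encodes smoothelin, an actin-associated protein of fully contractile smooth muscle cells, and its 2 probes went opposite ways. Probe 1 had levels of 2.59, 2.62 and 2.68 on the arrays labelled control and of 3.04, 2.85 and 2.91 on those labelled S3d. Probe 2 had levels of -0.26, -0.32 and -0.30 on the arrays labelled control and of -1.62, -1.79 and -1.63 on those labelled S3d. Neither probe had overlapping groups, and both were called, at 0.30 ± 0.07 (SE, adjusted p 0.0099 in limma) for probe 1 and at -1.39 ± 0.07 (adjusted p 2.4e-05) for probe 2. The call of probe 1 was lost under median centring, where its difference was 0.13 with an adjusted p of 0.16, and quantile normalization gave 0.52.

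Myh11 encodes the smooth muscle myosin heavy chain, the motor of the thick filament, and it too had 1 probe called in each direction. Probe 1 had levels of 2.94, 3.41 and 2.97 on the arrays labelled control and of 4.14, 4.03 and 4.09 on those labelled S3d. Probe 2 had levels of 1.32, 1.24 and 1.15 on the arrays labelled control and of 0.36, 0.13 and 0.46 on those labelled S3d. Control replicate 2 was the highest control-labelled array at probe 1, but it stayed below every S3d-labelled array. The differences were 0.98 ± 0.14 (SE) for probe 1, with an adjusted p of 0.001 in limma, and -0.92 ± 0.10 for probe 2, with an adjusted p of 0.00038. The mean over both probes differed by 0.03 with an adjusted p of 0.79, so no direction can be given for the gene.

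Mylk encodes myosin light chain kinase, the enzyme that starts contraction. Probe 1 had levels of 3.03, 2.91 and 2.95 on the arrays labelled control and of 1.35, 1.37 and 1.44 on those labelled S3d, the widest gap between the groups among the 14 probes. Its difference was -1.57 ± 0.07 (SE) with an adjusted p of 1.6e-05 in limma. Probe 2 had levels of -0.62, -0.55 and -0.56 against -1.02, -1.35 and -1.27, again without overlap, and a smaller difference of -0.64 with an adjusted p of 0.0016.

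Des encodes desmin, the intermediate filament of muscle cells. Its levels were 5.48, 5.27 and 5.19 on arrays with the control label and 4.13, 3.88 and 4.36 on those labelled S3d. The S3d-labelled arrays were all lower and spread wider, with an SD of 0.24 against 0.15. The difference was -1.19 ± 0.14 (SE) with an adjusted p of 0.00051 in limma, and quantile normalization gave -0.76, also called.

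A difference between 2 probes on the same array does not change when the whole array is made brighter or dimmer. Between the groups, Myh11 probe 2 shifted by -1.90 against probe 1, Smtn probe 2 by -1.69 and Mylk probe 2 by 0.94. With normexp background correction on the signals as scanned, these shifts were -2.03, -2.18 and 0.35. The shifts of Tpm2 probes 2 and 3 against probe 1 were 0.21 and 0.13, and those turned to -0.12 and -0.55 under quantile normalization. In all 5 pairs the 2 groups did not overlap, and each had an exact two-sided permutation p of 0.1, the smallest that 3 arrays against 3 allow. Of the 4 members with more than 1 probe, 2 were called in both directions, against 22.8% of the 2626 genes on the array with 2 or more tested probes. Where in the transcript each probe lies was not used here, so these pairs cannot be assigned to isoforms.

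**Figure D2:**
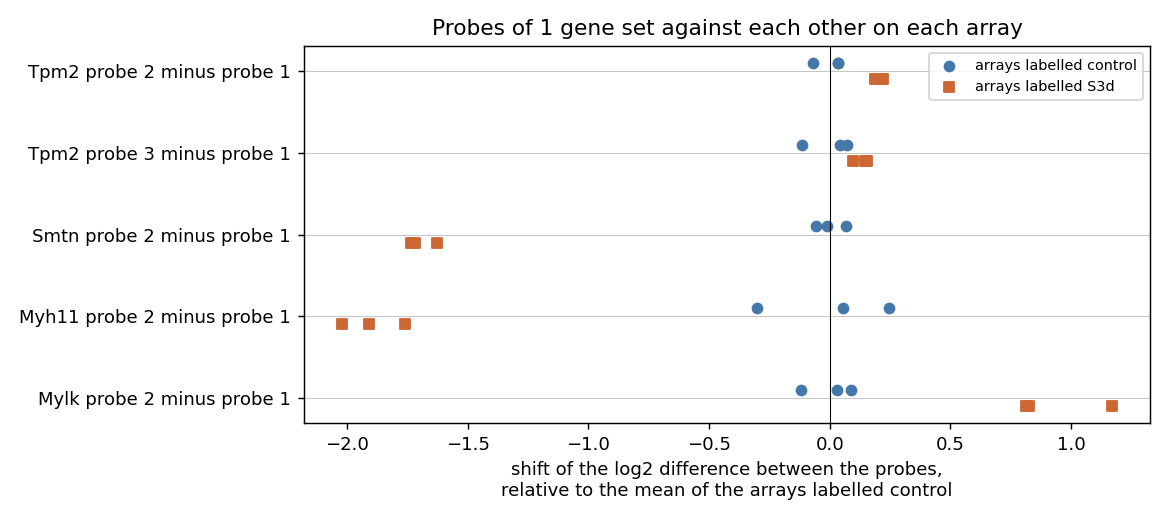
For each pair of probes of 1 gene, a point is the log2 difference between the probes on 1 array, minus the mean of that difference over the arrays labelled control. The S3d-labelled arrays lie near -1.9 for Myh11, near -1.7 for Smtn and near 0.9 for Mylk, and close to the control-labelled arrays for Tpm2.

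With each gene set against the mean of the other members on the same array, 4 members had a positive and 5 a negative shift between the groups. These shifts sum to 0 by construction, so that both signs occur is not a result, and a positive shift can go with a gene that was not higher itself, as in Cnn1. The shifts were 1.63 for Myh11, 0.88 for Actg2, 0.87 for Smtn and 0.41 for Cnn1, and -0.39 for Tpm2, -0.55 for Tagln, -0.80 for Lmod1, -0.81 for Des and -1.24 for Mylk. These values use the brightest probe of each gene, so those of Myh11 and Smtn rest on probe 1 alone. Under quantile normalization the shift of Tpm2 turned to 0.19, that of Cnn1 was 0.087 and that of Lmod1 -1.42. Normexp on the signals as scanned gave -1.90 for Lmod1, -0.52 for Des, -0.335 for Tagln, -0.086 for Tpm2 and 0.225 for Cnn1. Each shift had an exact two-sided permutation p of 0.1. By gene, 5 of the 9 measured members were called lower and 2 higher at the brightest probe, with a median difference of -0.82, whereas 73.5% of the 11485 genes tested in the same way were called, 36.1% higher and 37.4% lower.

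Among 25 other genes of smooth muscle contraction and its control, 22 were tested, 12 were called lower and 6 higher, with a median difference of -0.23. Rock2, a kinase that keeps myosin phosphorylated, differed by -1.31 at its brightest probe (adjusted p 0.00012 in limma). A second Rock2 probe, which was not well above background on any array labelled control, was called higher. Myocd, the partner of serum response factor, differed by -1.30 (adjusted p 3e-04), and Chrm3, the muscarinic receptor through which acetylcholine contracts the gut, by -0.97 (adjusted p 0.00028). Vcl, which encodes vinculin of the membrane attachment plaques, differed by 0.95 at its brightest probe (adjusted p 3.2e-05) and by -1.64 and -1.72 at its other probes. Srf, chosen after its values were seen, differed by -0.65 at its brightest probe (adjusted p 0.00017) and by -1.71 and 0.06 at its other probes, and quantile normalization gave -0.37 for the brightest. Flna, Ppp1r12a, Ppp1r14a and Rhoa, also named after their values were seen, were not called at their brightest probe, whereas a second probe of Ppp1r12a was called lower at -0.44 (adjusted p 0.0027).

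Several members have close relatives that most cells use. Of 12 such non-muscle genes 11 were tested, 7 were called lower and 2 higher, and their median difference was -0.71, beside -0.82 for the members. Over all genes tested in the same way, 37.4% were called lower and 36.1% higher. Actb, the cytoplasmic beta actin, differed by -1.62 (adjusted p 1.2e-05 in limma), Myl12b, a non-muscle myosin light chain, by -1.22 (7.6e-05), Myh9, a non-muscle myosin heavy chain, by -1.12 (2.2e-05) and Actg1, the cytoplasmic gamma actin, by -1.06 (3.9e-05). Actb and Actg1 lay in the brightest 10% of all tested probes, of which 65% were called lower. Under quantile normalization Actb was at -0.38 and still called, Actg1 was at -0.17 with an adjusted p of 0.11, and the list had 4 genes called lower and 3 higher. No test of the difference between these lists and the members was made.

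Markers of other cells of the bowel wall were read beside the members. Over all genes tested in the same way, 37.4% were called lower and 36.1% higher. Of the 10 enterocyte markers, 8 were called lower and 2 were not called, with a median difference of -1.03. All of these markers lay at brightness percentile 94 or above. Of the brightest 10% of all tested probes, 65% were called lower, and the median difference there was -0.49. The mean level of the enterocyte markers was 7.42 to 7.56 on the arrays labelled control and 6.63 to 6.70 on those labelled S3d. That of the 9 measured members was 3.22 to 3.39 and 2.76 to 2.91. Both means were lower on every array labelled S3d. Among the members, however, Myh11 and Smtn were called higher at their brightest probe and lower at their other probe. The enterocyte markers Anpep and Epcam, named after their values were seen, differed by 0.07 and 0.11 and were not called. Of the leukocyte markers 6 were tested, with 4 called lower and 1 higher, and of the fibroblast markers 6, with 2 in each direction. Pericyte and endothelial markers (6 tested) also had 2 in each direction, the 3 markers of interstitial cells of Cajal had 1 in each, and of 5 tested markers of enteric neurons and glia 2 were called higher and 3 were not called. Of the 9 tested striated muscle markers, 4 were called higher and 1 lower. Actc1, the cardiac alpha actin, had levels of -2.02, -1.47 and -1.15 on the arrays labelled control and of 0.98, 1.75 and 1.75 on those labelled S3d, a difference of 3.04 (adjusted p 0.00022 in limma) without overlap. The part of any of these cell types in the values of the members was not tested.

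**Figure D3:**
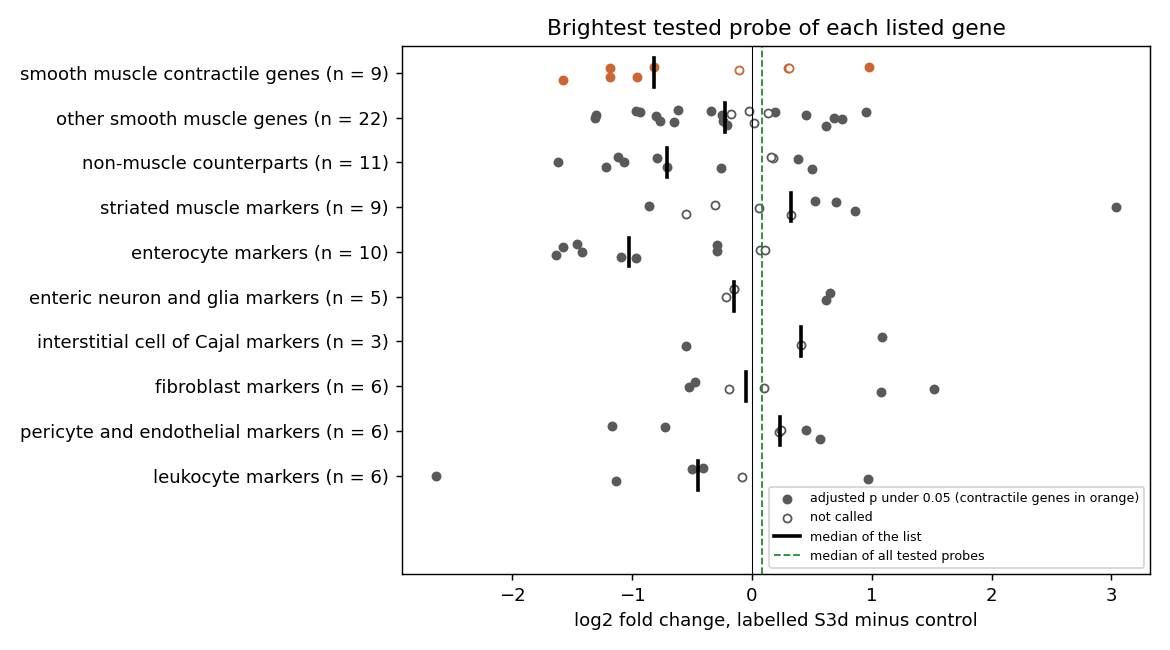
Each point is the log2 difference, labelled S3d minus labelled control, of 1 gene at its brightest tested probe, filled where limma's adjusted p was under 0.05. The black bars mark list medians, which lie at -0.82 for the contractile genes, -0.23 for other smooth muscle genes, -0.71 for non-muscle counterparts and -1.03 for enterocyte markers.

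The probes whose pattern over the 6 arrays was most like the mean of the brightest member probes were those of Tmsb15b2 (Pearson r 0.9986), Ncbp2 (0.9975), Stbd1 (0.9972), Timp1 (0.9969) and Ifitm2 (0.9968). Timp1 encodes an inhibitor of matrix metalloproteinases, Ncbp2 a subunit of the nuclear cap-binding complex and Ifitm2 an interferon-induced membrane protein. Of the 13339 candidate probes 2609 had an r over 0.95, and the 6 points share 2 groups, so the order among these genes is a description.

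The size of the members' differences depended on the scaling between arrays. The median difference of the 9 genes was -0.82 with the 75th percentile, -0.99 with median centring, -0.09 with quantile normalization and 1.03 with no scaling, while the median of all tested probes was 0.08, -0.09, 0.01 and 1.93. Without scaling, all 11 negative differences of member probes became positive. The 75th percentile, median centring and no scaling move all probes of an array alike, so the gap between the members and all probes is the same in these 3 settings by construction. Under quantile normalization that gap was small, and under normexp on the signals as scanned the members were at -0.13 and all probes at -0.69. By its own labels, the normalized table gave -0.98 for Actg2, -1.30 and 0.89 for the 2 Myh11 probes, 0.58 for Tagln, 0.75 for Des and 1.43 for Mylk probe 1 and for Lmod1.

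**Figure D4:**
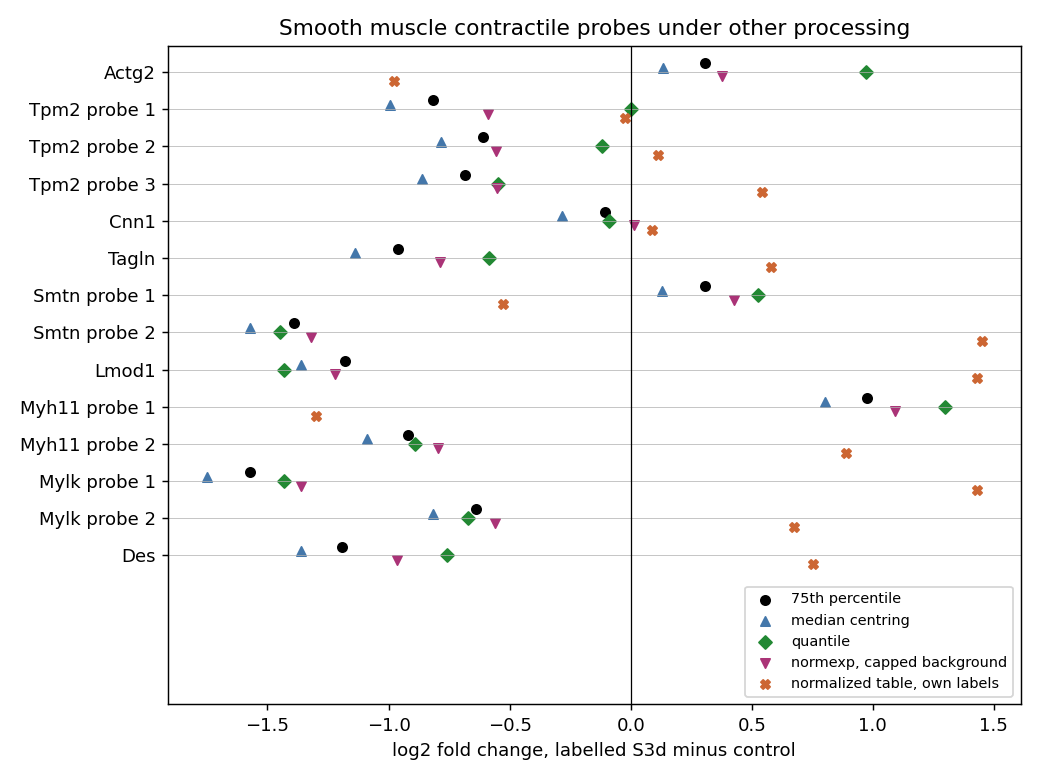
Log2 differences of the 14 probes, labelled S3d minus labelled control, are plotted for the 75th percentile, median centring, quantile normalization and normexp with capped background, and for the normalized table by its own labels. Under these 4 treatments of the scanner files, which leave out the unscaled signals, points fall on the same side of 0 for all probes except Cnn1. With Cnn1 set aside, the points of the normalized table fall on the other side for all probes except Tpm2 probe 1.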

How the data were processed

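The authors deposited the scanner output of 6 arrays from Agilent Feature Extraction 10.7.3.1, whose processed signal is an intensity corrected for background and not normalized between arrays, and 1 table of log2 values. The table was used as an alternative, and the text of the methods names no program for it. Control spots and outlier spots were left out, and spots of 1 probe were averaged. Tested were the probes that either group showed well above background on each of its 3 arrays. The groups were compared by moderated linear models in R 4.3.3 (limma 3.58.1, no block, Benjamini-Hochberg adjustment), a procedure first tested on simulated data. The brightest tested probe stood for a gene. Names and promoters came from RefSeq tables of GRCr8, which named 17512 of 41012 probes. The members and gene lists were chosen with earlier results of these data known. Named by rule are all members, from each other list at most 4 called genes of largest difference, and the 5 probes most like the members. Srf, Flna, Ppp1r12a, Ppp1r14a, Rhoa, Anpep and Epcam were named outside this rule, after their values were seen. Alternatives were other scalings, normexp with an offset of 50 (on the median signal), the table, other filters, outlier spots kept, a replicate block, the analysis of variance that the methods name, the mean over the probes of a gene, and each array left out. Normexp with capped background and the probe pairs were added after seeing the data. The number of arrays limits the precision.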

Additional observations from a re-analysis of the deposited data

How the results depend on the processing

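The total counts of called members and of called genes in the other smooth muscle and non-muscle lists, over both directions, stayed within 1.5 times their values under all alternatives except normexp on the signals as scanned. Their split by direction did not. Member probes went from 2 higher and 10 lower to 14 and 0 without scaling, to 8 and 3 in the normalized table and to 3 and 8 under quantile normalization. Other smooth muscle genes went from 6 higher and 12 lower to 22 and 0 without scaling and to 11 and 8 in the table, and member genes from 2 higher and 5 lower to 0 and 6 with the mean over probes. With each array left out in turn, 12 to 13 member probes and 7 to 8 member genes were called, and the median of the members was -0.89 to -0.77. The only member call that changed was that of Actg2, gained without control replicate 1. Actg2 was also called when probes had to be above background on all 6 arrays (adjusted p 0.044). The replicate numbers pair no samples, since the deviations of same-numbered arrays correlated at 0.02, 0.02 and -0.05. With the replicate block, 12 member probes were called, with a median of -0.82, and no member changed its call. A slide block was not run, since no slide held both groups.

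Normexp on the signals as scanned called 1 member probe, 0 member genes, 0 other smooth muscle genes and 0 non-muscle genes, with a member median of -0.13, and 1752 of 31363 probes in all, by limma's adjusted p. At an unadjusted p under 0.05 the counts of the 3 lists were 3, 8 and 3. On control replicate 3, 8 spots had a local background over 10 times the median, and the 5th percentile of its corrected signal was 970, against 58.6 to 66.4 on the other arrays. With these backgrounds capped, 13 member probes and 25554 probes in all were called, the member median was -0.59 and the median of all probes -0.42. Under normexp Cnn1 was at 0.14 and Ifitm2 at 0.054, and Tpm2 probe 3 shifted by -0.10 against probe 1. Capped, Cnn1 was at 0.016. The call of Actg2 was gained at 0.38 (adjusted p 0.013).

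The member median moved to -0.089 under quantile normalization, to -0.99 under median centring and to -0.70 with the mean over the probes of a gene. Under quantile normalization Tpm2 shifted by 0.19 against the other members, and its probes 2 and 3 by -0.12 and -0.55 against probe 1. With the mean over probes, Smtn was at -0.54, Rock2 at 1.46 and Vcl at -0.80. The value of Rock2 takes in its second probe, which was not well above background on any array labelled control. It therefore gives no direction for Rock2.

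With no scaling the signs turned and the member median was 1.03, as this keeps the brighter signal of the arrays labelled S3d. The differences were 1.03, 1.24 and 1.16 for Tpm2 probes 1 to 3, 1.74 for Cnn1, 0.88 for Tagln, 0.46 for Smtn probe 2, 0.66 for Lmod1, 0.93 for Myh11 probe 2, 0.27 and 1.21 for Mylk probes 1 and 2 and 0.66 for Des. They were 0.53 for Rock2, 0.54 for Myocd, 0.88 for Chrm3, 1.20 for Srf, 0.23 for Actb, 0.78 for Actg1, 0.73 for Myh9 and 0.63 for Myl12b, and 1.28 for Tmsb15b2, 1.27 for Ncbp2, 1.38 for Stbd1, 0.21 for Timp1 and 1.38 for Ifitm2.

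The normalized table, whose labels run the other way, gave a member median of 0.087. It gave -0.98 for Actg2, 0.11 and 0.54 for Tpm2 probes 2 and 3, 0.087 for Cnn1, 0.58 for Tagln, -0.53 and 1.45 for Smtn probes 1 and 2, 1.43 for Lmod1, -1.30 and 0.89 for Myh11 probes 1 and 2, 1.43 and 0.67 for Mylk probes 1 and 2 and 0.75 for Des. Other genes were at 1.33 for Rock2, 1.56 for Myocd, 0.75 for Chrm3, -1.06 for Vcl, 0.37 for Srf, 0.35 for Actb, 0.15 for Actg1, 1.14 for Myh9, 1.14 for Myl12b, -3.03 for Actc1, 0.67 for Tmsb15b2, 0.50 for Ncbp2, 0.59 for Stbd1, 1.47 for Timp1 and 0.039 for Ifitm2. Against the other members, the table gave -1.28 for Actg2, -0.083 for Cnn1, 0.47 for Tagln, -0.77 for Smtn, 1.43 for Lmod1, -1.65 for Myh11, 1.43 for Mylk and 0.67 for Des, and probe 2 against probe 1 shifted by 1.98 for Smtn, 2.20 for Myh11 and -0.75 for Mylk.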
